A study of Mus musculus with 4 samples.

Results

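The nuclear-encoded genes of the mitochondrial respiratory chain were followed by complex in lamina propria CD4 T cells from the small intestine of wild-type mice. Members were all gene symbols that start with Nduf, Sdha, Sdhb, Sdhc, Sdhd, Uqcr, Cox4, Cox5, Cox6, Cox7, Cox8 or Atp5, leaving out pseudogene symbols that hold -ps. The names alone chose them, which gave 97 of 31053 gene IDs, with 96 symbols because 2 IDs carry the symbol Atp5o. Of these, 46 IDs belonged by name to complex I, 8 to complex II, 8 to complex III, 18 to complex IV and 17 to complex V.

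The respiratory chain sits in the inner mitochondrial membrane. Complex I takes electrons from NADH and complex II, which is also the succinate dehydrogenase of the tricarboxylic acid cycle, takes them from succinate. Complex III passes them to cytochrome c and complex IV hands them to oxygen, and the proton gradient built on the way drives ATP synthesis by complex V. Complex II is encoded by nuclear genes alone, whereas the other complexes also hold subunits encoded by mitochondrial DNA, and mitochondrial translation and nuclear transcription both feed their assembly. Activated and dividing T cells enlarge their mitochondria, and T cells of different effector kinds are known to lean on respiration and glycolysis to different degrees.

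All 4 libraries (SI-WT, numbered 1 to 4) came from one group of wild-type C57Bl/6 mice with no treatment, and held living cells sorted as CD45+CD3+CD4+ and 7AAD-negative. Peyer's patches had been removed before the tissue was digested, and libraries were made with the droplet-based Chromium 5′ kit. The labels do not say whether a library is the cells of 1 mouse or of a pool. The p-values therefore measure only how differences between gates vary over these libraries. Cells were put into gates by the first rule they met: at least 1 unique molecular identifier (UMI) of Foxp3, the regulatory T cell factor, then at least 1 of Il17a, the cytokine of Th17 cells, then at least 1 of Ifng, the cytokine of Th1 cells, then at least 10 of Gzma, a granule protease, and otherwise the rest.

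The gates held 1535, 586, 6599 and 1746 cells for Foxp3, Il17a, Ifng and Gzma, and 11035 cells formed the rest. Summed per library, a gate held 1948614 to 2563246 UMIs for Foxp3, 506217 to 1654224 for Il17a, 7265981 to 8572639 for Ifng, 1625177 to 1976518 for Gzma and 10556107 to 12004725 for the rest, so the Il17a gate gives the least precise levels. A gate is not a cell type: all 7 markers of regulatory T cells other than Foxp3 were higher in the Foxp3 gate than in the rest, and all 6 markers of Th17 cells other than Il17a were higher in the Il17a gate. However, 36.1% of cells of the Foxp3 gate and 37.2% of those of the Il17a gate also met a later rule. The 7 T cell markers, Cd4 and the CD3 genes among them, were present in every gate and library, with a summed level of 5029 to 6446 CPM (UMIs per total of 1000000). Gates need a detected transcript, and a cell with more UMIs can meet such a rule more easily. The Foxp3, Il17a and Ifng gates were deeper than the rest and the Gzma gate was shallower, and the cause of these differences was not tested. The median cell had 4483 UMIs in the Foxp3 gate, 5215.5 in the Il17a gate, 3964 in the Ifng gate, 3576.5 in the Gzma gate and 3745 in the rest. Every comparison was therefore repeated with 506 cells a gate drawn to the same UMI depth within each library (170, 130, 86 and 120 cells in libraries 1 to 4), where the medians were 4536.5 to 4668.5. Among 22632 distinct barcodes, 270 occurred in more than 1 library.

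Promoters are shown for 6 members on which the results below turn: Uqcrc1, Sdhb and Cox6a1, which were higher in the Il17a gate than in the Ifng gate, and Sdhaf1, Uqcr11 and Atp5h, which stood out in the Foxp3 gate. Sequences are from RefSeq (GRCm38.p6), from 250 bases before to 50 bases after the start of the gene, written along the gene's own strand. RefSeq's start of Sdhaf1 lies inside the span that GENCODE M21, used below, gives for that gene, so its window is not upstream of the GENCODE start. Capitals mark matches, on either strand, to GCATGCGC (bound by NRF1, a regulator of respiratory chain genes), CCGGAAGT (bound by ETS factors such as GABPA) and GGGCGG (bound by SP1). Matches on opposite strands overlap in Uqcrc1 and Cox6a1, where they merge into 1 run of capitals. The windows were chr9:108936398-108936697 (plus strand) for Uqcrc1, chr4:140961021-140961320 (plus strand) for Sdhb, chr5:115348909-115349208 (minus strand) for Cox6a1, chr7:30322326-30322625 (minus strand) for Sdhaf1, chr10:80406772-80407071 (minus strand) for Uqcr11 and chr11:115419870-115420169 (minus strand) for Atp5h.
Uqcrc1: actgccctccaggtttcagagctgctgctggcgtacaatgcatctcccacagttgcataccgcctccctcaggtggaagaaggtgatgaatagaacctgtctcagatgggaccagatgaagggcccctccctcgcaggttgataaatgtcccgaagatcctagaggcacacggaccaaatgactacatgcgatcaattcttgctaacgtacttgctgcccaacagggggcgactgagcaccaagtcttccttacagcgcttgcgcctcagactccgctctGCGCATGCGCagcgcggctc
Sdhb: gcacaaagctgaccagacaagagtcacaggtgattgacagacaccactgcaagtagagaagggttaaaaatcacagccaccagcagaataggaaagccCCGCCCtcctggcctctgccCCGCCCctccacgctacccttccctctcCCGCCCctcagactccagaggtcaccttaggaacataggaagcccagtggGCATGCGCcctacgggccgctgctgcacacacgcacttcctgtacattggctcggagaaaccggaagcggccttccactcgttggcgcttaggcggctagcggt
Cox6a1: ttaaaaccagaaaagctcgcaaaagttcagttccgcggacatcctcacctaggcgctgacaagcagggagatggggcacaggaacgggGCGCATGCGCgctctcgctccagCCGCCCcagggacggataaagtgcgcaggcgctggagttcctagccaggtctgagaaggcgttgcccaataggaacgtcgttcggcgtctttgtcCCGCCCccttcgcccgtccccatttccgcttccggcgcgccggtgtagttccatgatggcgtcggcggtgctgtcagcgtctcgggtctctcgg
Sdhaf1: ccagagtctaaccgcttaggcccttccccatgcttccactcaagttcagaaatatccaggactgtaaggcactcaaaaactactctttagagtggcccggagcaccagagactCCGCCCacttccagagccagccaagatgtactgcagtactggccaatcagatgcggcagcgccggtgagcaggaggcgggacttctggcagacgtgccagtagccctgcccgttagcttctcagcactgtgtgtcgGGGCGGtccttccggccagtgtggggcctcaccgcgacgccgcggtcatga
Uqcr11: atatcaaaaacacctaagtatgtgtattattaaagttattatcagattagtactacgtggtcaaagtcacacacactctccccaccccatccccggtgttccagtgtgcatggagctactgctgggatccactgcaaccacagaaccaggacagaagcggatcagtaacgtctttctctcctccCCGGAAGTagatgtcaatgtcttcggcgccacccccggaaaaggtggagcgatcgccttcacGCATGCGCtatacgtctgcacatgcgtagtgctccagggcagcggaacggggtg
Atp5h: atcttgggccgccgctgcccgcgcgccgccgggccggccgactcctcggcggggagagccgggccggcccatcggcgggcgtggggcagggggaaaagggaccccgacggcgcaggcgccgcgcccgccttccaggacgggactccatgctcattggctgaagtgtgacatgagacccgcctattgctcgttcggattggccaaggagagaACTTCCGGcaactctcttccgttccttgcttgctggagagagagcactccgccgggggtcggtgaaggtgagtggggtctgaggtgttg

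Of the 96 member symbols, 80 were matched to a promoter window in that table. GCATGCGC occurred in 12 of the 80 (15%) and in 2.80% of all 27025 promoter windows. It was in 5 of 40 windows of complex I, 1 of 7 of complex II, 2 of 5 of complex III, 1 of 13 of complex IV and 3 of 15 of complex V. AAGATGGCG, the letters bound by YY1, occurred in 8.75% of members and 1.49% of all windows, and 6 of its 7 member windows belonged to complex I. GGGCGG was in 48.75% of members and 35.9% of all, but in none of the 5 windows of complex III. CCGGAAGT was in 6.25% and 4%, the E-box CACGTG in 7.5% and 7.24%, and the cAMP response element TGACGTCA in 5% and 1.88%. A match is only a run of letters in this window, and nothing was measured here on the binding of any factor.

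Transcripts of 93 of the 97 gene IDs were detected in the 21501 cells. The 4 with no UMI were Ndufa4l2, Cox7b2, Cox8b and the second ID of Atp5o. Isoforms of complex IV that are known from heart, muscle, lung or testis were all but absent beside the forms found in most tissues. Cox4i2 had 6 UMIs in all cells, Cox8c 2, Cox6b2 102, Cox7a1 143 and Cox6a2 160, of which 137 lay in the rest. Levels are given as CPM, the UMIs of a gene in a gate and library scaled to a total of 1000000 UMIs. The common forms were among the most counted members: Cox4i1 had 825, 781, 798 and 772 CPM in libraries 1 to 4 of the rest, and Cox8a had 945, 929.9, 959 and 985 CPM. Cox6a1 had 368, 357, 343 and 355, Cox6b1 431, 429, 417 and 427, Cox7a2 367, 363, 360.5 and 385 and Cox7b 307, 301, 308 and 311 CPM in the rest. A UMI marks the 5′ end of 1 transcript and was not divided by gene length, and reads of near-identical copies may have been lost or shared by the authors' counting, so levels of different genes are set side by side only within this scale.

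A filter on low counts left 88 members to test among 9693 genes in all cells, and 85 among 7700 genes at matched depth. Complex I kept 45 of its 46 IDs, complexes II and III all 8, complex IV 11 of 18 and complex V 16 of 17. Members that the filter removed had at most 160 UMIs in all cells, so nothing is said of their direction.

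Summed over all members, the respiratory chain took the largest share of transcripts in the Il17a gate. The sums in libraries 1 to 4 were 22415, 22247, 21886 and 22677 CPM in the Foxp3 gate, 26049, 24295, 25596 and 25846 in the Il17a gate, 22818, 22642, 22653 and 23056 in the Ifng gate, 22664, 23503, 23582 and 23163 in the Gzma gate and 22625, 22409.9, 22446 and 22539.6 in the rest. All 4 libraries of the Il17a gate lay above every library of the other gates. The log2 ratio of the Il17a gate to the rest was 0.18 ± 0.04 and to the Ifng gate 0.16 ± 0.04 (mean ± SD of 4 libraries). The Foxp3 gate overlapped the rest, with a ratio of -0.01 ± 0.02.

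At matched depth the order was different. The sums became 21415, 22354, 21869.6 and 22127 CPM in the Foxp3 gate, 24959, 23869, 24789 and 24513 in the Il17a gate, 22324, 23529, 23103 and 23246 in the Ifng gate, 23779, 25007, 23963 and 24769 in the Gzma gate and 23960.2, 24700.1, 23884 and 23344 in the rest. The Il17a gate now overlapped the Gzma gate and the rest, with a log2 ratio of 0.03 ± 0.06 to the rest, and stayed above every library of the Ifng gate, with a ratio of 0.09 ± 0.06. That ratio was 0.024 at matched depth without cycling cells, where library 3 was lower in the Il17a gate, and 0.016 in cells of 3000 to 6000 UMIs, where library 2 was. Every library of the Foxp3 gate fell below every library of the rest, with a ratio of -0.13 ± 0.04, which was -0.066 without cycling cells. The sum of the rest was itself higher in the matched draw, whose median cell of the rest had 4536.5 UMIs, against 3745 in all cells. Cells with 2 or more UMIs of cycling markers were 26.7% to 36.9% of the rest in that draw, against 18.2% to 23.7% in all cells. In the matched draw they were 25.6% to 31.7% of the Foxp3 gate, 29.1% to 45% of the Il17a gate, 29.1% to 34.1% of the Ifng gate and 36.0% to 44.2% of the Gzma gate.

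**Figure D1:**
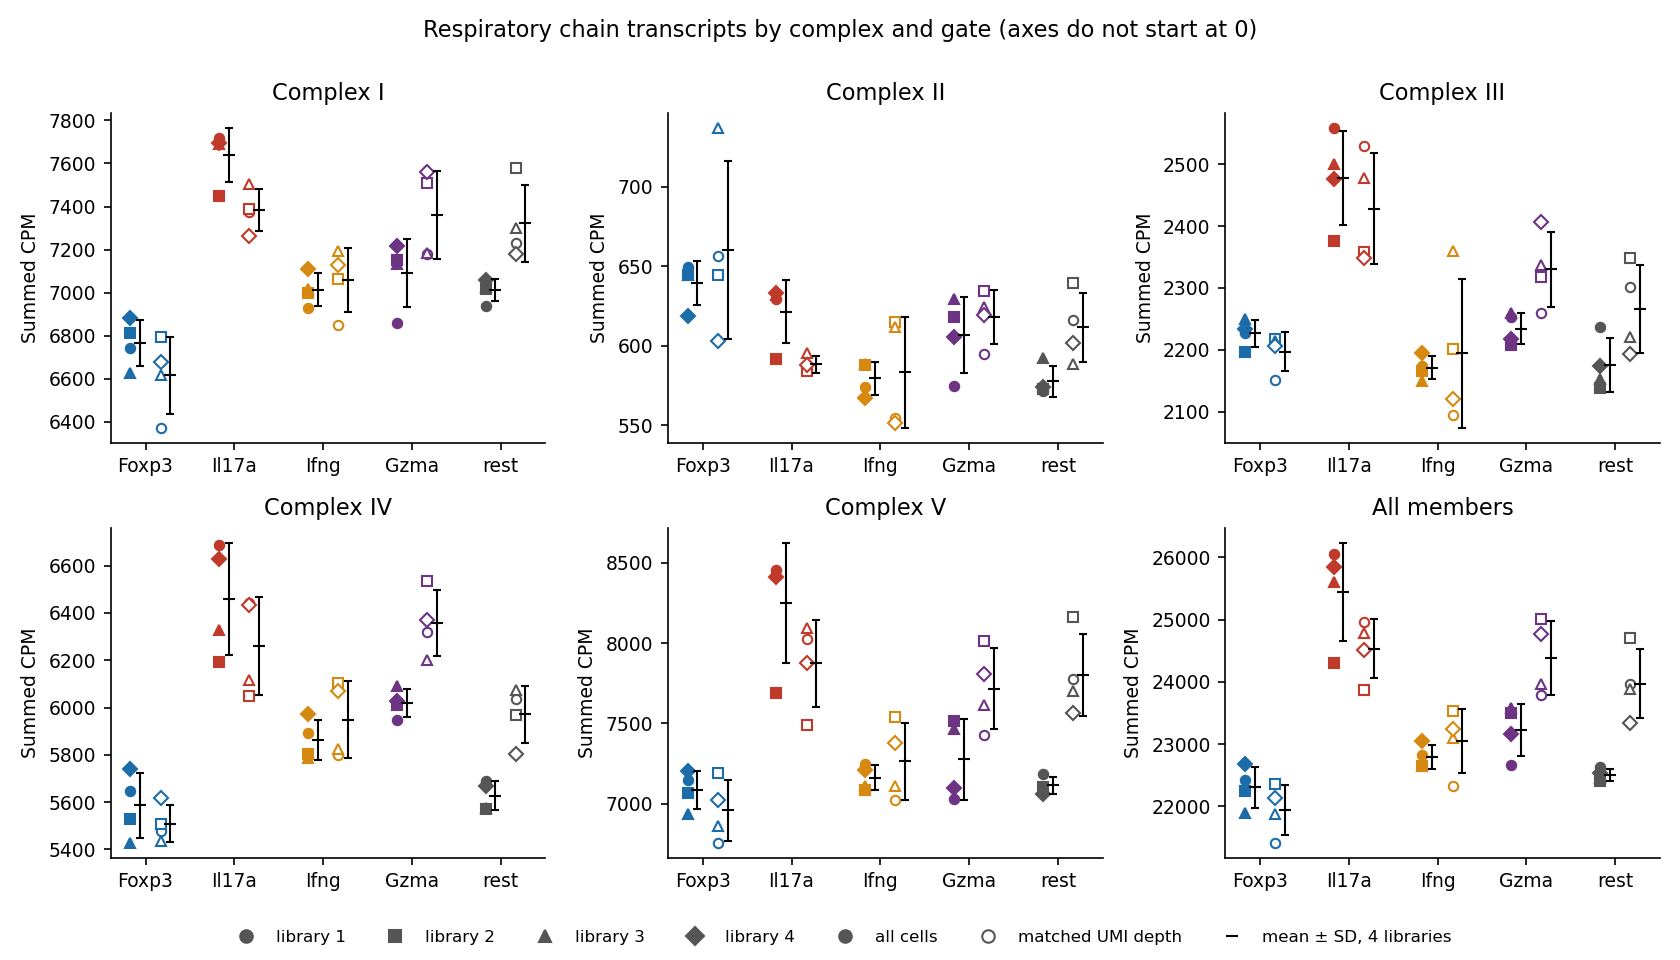
Summed CPM of the members of each complex and of all members (vertical axes, not starting at 0) in each gate; filled symbols are all cells, open symbols cells of matched UMI depth, one symbol shape per library, with the mean ± SD of 4 libraries beside them. In all cells the Il17a gate is highest in complexes I, III, IV and V, and the Foxp3 gate is highest on average in complex II; at matched depth the Foxp3 gate is lowest in complexes I, IV and V.

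By complex, the Il17a gate stood highest for complex V, with 8454, 7686, 8445 and 8410.1 CPM in libraries 1 to 4, against 7189, 7107, 7101 and 7062 in the rest. Complex IV had 6688, 6193, 6327 and 6630.0 CPM in the Il17a gate, against 5689.7, 5572, 5575 and 5668 in the rest, and complex III had 2559, 2376, 2501 and 2476 against 2236, 2139, 2152 and 2174. In these 3 complexes and in complex I (7719, 7449, 7690.4 and 7697 against 6939, 7019, 7026 and 7061 CPM) no library of the Il17a gate overlapped the rest. Complex II had its highest mean in the Foxp3 gate, at 649, 644, 645 and 619 CPM, with 629, 591, 632 and 633 in the Il17a gate and 572, 572, 592 and 574 in the rest. Of its 8 members, the assembly factor Sdhaf1 had the widest gap there, averaging 82.3 ± 9.95 CPM in the Foxp3 gate and 38.3 ± 0.917 in the rest, followed by Sdhb at 211 ± 5.70 and 185 ± 6.18 (SD, n = 4 libraries). That order rests on Sdhaf1, since without it complex II averaged 595 ± 21.9 CPM in the Il17a gate, 557 ± 6.92 in the Foxp3 gate and 539 ± 9.13 in the rest. Complex IV also stood above the rest in the Gzma gate, at 5947, 6011, 6093 and 6028 CPM, and in the Ifng gate, at 5894, 5804, 5787 and 5971 CPM. These values are of all cells. At matched depth complex IV had 5797, 6106, 5825 and 6070 CPM in the Ifng gate, which overlapped the rest at 6035, 5969, 6076 and 5805. The Gzma gate stayed above, at 6318, 6535, 6202 and 6372. The Il17a gate overlapped the rest there in complexes I, IV and V, and in complex III its lowest library, at 2348.5 CPM, barely passed the highest of the rest, at 2348.1.

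In the Il17a gate 55 of 88 members were higher than in the rest and 2 were lower (edgeR's quasi-likelihood test, Benjamini-Hochberg adjusted p under 0.05 over 9693 genes), where 15.6% of all genes were called higher and 10.7% lower. The median log2 fold change of the members was 0.21, against -0.03 over all genes. All 10 tested subunits of complex IV, all 5 F1 subunits of complex V and 6 of 8 members of complex III were higher, whereas only 1 of 8 complex I assembly factors and 2 of 8 members of complex II were. Against the Ifng gate the counts were 55 higher and 3 lower, where 15.1% of all genes were called higher and 11.0% lower, with a median of 0.21 for the members and -0.02 over all genes. The 2 comparisons share the Il17a libraries and are not independent. Likewise, the 4 comparisons with the rest share its libraries. The count against the rest was 36 without library 1, and in cells of 3000 to 6000 UMIs it was 3 against the rest and 5 against the Ifng gate. Against the rest, 11.0% of all genes were called higher and 7.34% lower without library 1. In that window the shares against the rest were 4.54% and 2%. The 3 members there were all higher and made up 3.45% of the members tested, under the share of all genes. Among members described below, Sdhd did not pass against the rest when any 1 library was left out, Ndufaf2 without library 1, 2 or 4, Atp5s without library 1 or 2 and Sdhaf1 without library 4. Against the Ifng gate the same held for Atp5s with any library left out, for Ndufaf3 without library 1, 2 or 3 and for Sdhaf1 without library 2 or 4.

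The Il17a difference from the rest was mostly gone at matched depth. There 1 of 85 members was higher and none lower, where 3.05% of all genes were called higher and 1.77% lower, and the members' median log2 fold change was 0.04. An unadjusted p under 0.05 was reached by 18 of the 85 (21.2%) and by 15.6% of all genes, and DESeq2 called no member. No member passed without library 1 or 4. Without library 3, 2 passed, where 2.61% of all genes were called higher and 1.08% lower. With equally few cells drawn without regard to depth, 25 members were higher than in the rest and none lower, with a median of 0.21, where 8.02% of all genes were called higher and 5.98% lower. With gates set after thinning each cell to 2000 UMIs, which leaves out shallower cells but does not match depth, 43 were higher and none lower, with a median of 0.18, where 11.9% of all genes were called higher and 8.69% lower. In matching done for the Il17a gate and the rest alone, 0 members passed by edgeR, where 3.54% of all genes were called higher and 1.46% lower, and 9 of 86 (10.5%) had an unadjusted p under 0.05, against 16.2% of all genes. Against the Ifng gate, 17 of 85 members stayed higher at matched depth and none was lower, where 4.81% of all genes were called higher and 3.51% lower, and the median was 0.13. All 17 were among the 55 called in all cells. That count rests in large part on library 1, without which 1 member passed, and was 10 without library 3 and 8 without library 4. It was 10 in a second draw of cells and 10 in matching done for these gates alone, where 5.05% of all genes were called higher and 4.14% lower, and DESeq2 called 6. It was 1 when cells with 2 or more UMIs of cycling markers were left out before matching. Of all genes, 2.52% were called higher without library 1, 4.90% in the second draw, 2.69% with DESeq2 and 4.59% without cycling cells.

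**Figure D2:**
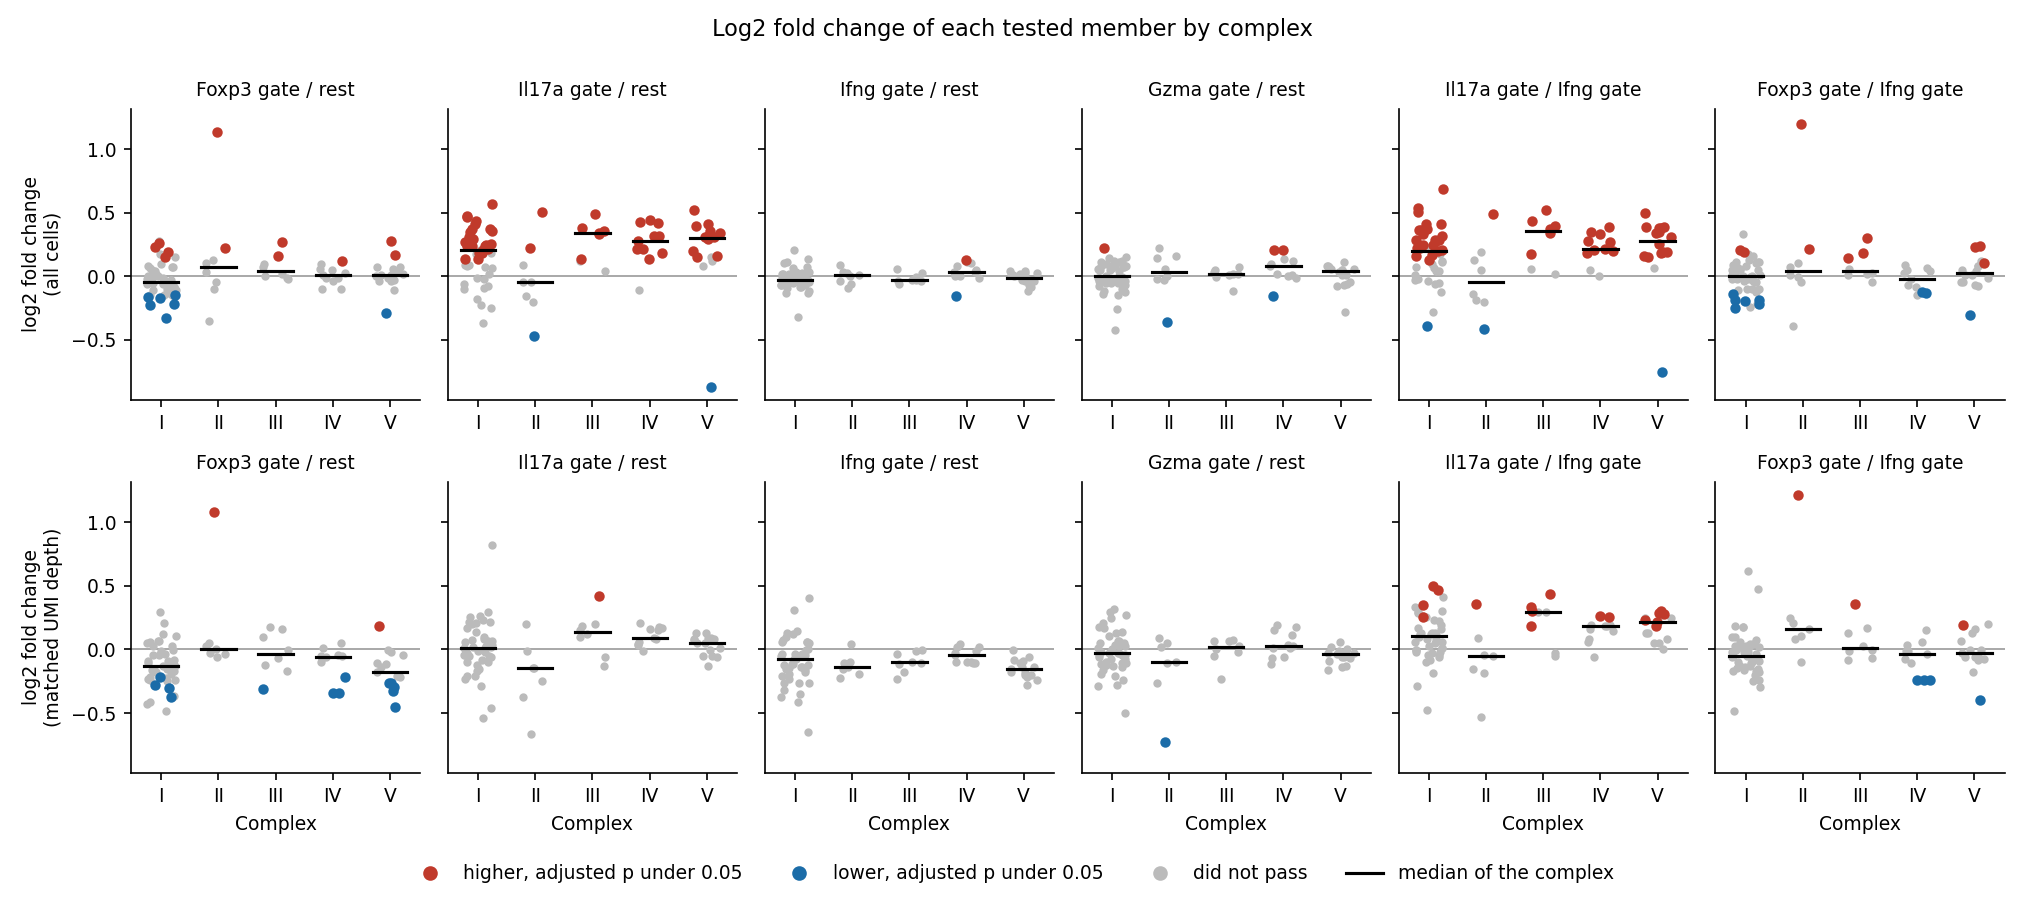
Log2 fold change of each tested member (points, 88 in all cells above and 85 at matched UMI depth below) in 6 gate comparisons, by complex; red points were higher and blue points lower at an adjusted p under 0.05, grey points did not pass, and black bars are medians. The Il17a gate lies above 0 in complexes I, III, IV and V in all cells and near 0 against the rest at matched depth, while the highest point of the Foxp3 gate against the rest is Sdhaf1 of complex II, at 1.14 in all cells and 1.08 at matched depth.

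Complex III gave the only member that was higher in the Il17a gate than in the rest at both depths. Uqcrc1, a core protein of complex III, had 176, 219.6, 189.6 and 199 CPM in libraries 1 to 4 of the Il17a gate, against 142, 149, 145 and 136 in the Ifng gate and 144, 144, 148 and 141 in the rest. No library of the Il17a gate overlapped either. It passed against the rest in all cells (log2 fold change 0.49, SE 0.06, adjusted p = 1.9e-06) and at matched depth (log2 fold change 0.42, SE 0.10, adjusted p = 0.007), and against the Ifng gate at matched depth (log2 fold change 0.43, SE 0.10, adjusted p = 0.0034). In matching done for the Il17a gate and the rest alone, Uqcrc1 stood at 0.23 and did not pass (adjusted p = 0.23). The Rieske iron-sulfur subunit Uqcrfs1 had 259.9, 235, 245 and 211 CPM in the Il17a gate, against 193, 188, 185 and 170.1 in the Ifng gate and 199.7, 196, 184 and 177 in the rest. It passed in all cells (log2 fold change 0.38, SE 0.06, adjusted p = 2.1e-05) and not at matched depth (log2 fold change 0.20, SE 0.11, adjusted p = 0.39). The small subunit Uqcr10 had 358, 298, 342 and 331 CPM in the Il17a gate, against 269.9, 268, 255 and 269 in the Ifng gate and 276, 262, 265 and 276 in the rest. Against the Ifng gate it passed at both depths (matched: log2 fold change 0.33, SE 0.08, adjusted p = 0.008). Uqcrq and Uqcrh, 2 further small subunits, also passed against the Ifng gate at matched depth, at log2 fold changes of 0.30 and 0.19.

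Complex I was less uniform. Of its 29 accessory subunits 20 were higher in the Il17a gate than in the rest, as were the core subunits Ndufs8 and Ndufv2. The accessory subunit Ndufb6 had 175, 183, 156 and 174 CPM in the Il17a gate, against 128, 119.6, 123 and 129 in the Ifng gate and 132, 133, 124 and 127 in the rest. The accessory subunit Ndufs5 had 207, 187, 186 and 189.8 CPM in the Il17a gate, against 137, 151, 131 and 153 in the Ifng gate and 139, 149, 144 and 149.7 in the rest. Neither overlapped the Ifng gate or the rest in any library, and both passed against the Ifng gate at matched depth (Ndufb6: log2 fold change 0.50, SE 0.11, adjusted p = 0.0024; Ndufs5: log2 fold change 0.47, SE 0.11, adjusted p = 0.0052). The assembly factor Ndufaf2 had the largest fitted rise of complex I (log2 fold change 0.57, SE 0.18, adjusted p = 0.019) on low and scattered values of 31.4, 39.3, 19.8 and 44.1 CPM in the Il17a gate, against 19.2, 23.0, 27.1 and 30.2 in the rest, which overlapped. Another assembly factor, Ndufaf3, was lower than in the Ifng gate, with 35.1, 33.0, 27.7 and 50.3 CPM against 46.0, 53.1, 55.1 and 55.0 (log2 fold change -0.39, SE 0.14, adjusted p = 0.039). It did not pass at matched depth (adjusted p = 0.26). Ndufa4, named for complex I but a subunit of complex IV, had 591, 531, 591 and 535 CPM in the Il17a gate, against 490.0, 471, 455 and 446 in the Ifng gate and 480.1, 488, 459 and 468 in the rest. It passed against the Ifng gate at matched depth (log2 fold change 0.25, SE 0.07, adjusted p = 0.021).

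The core subunits of complex I include those that carry its flavin and iron-sulfur centres. Summed, they had 753, 774, 753 and 735 CPM in the Il17a gate, against 683, 681, 705 and 683 in the rest, with no overlap. At matched depth they had 734, 752, 683 and 678 CPM in the Il17a gate, against 742, 797, 755 and 766 in the rest, which overlapped. Ndufs1 averaged 32.4 ± 3.84 CPM in the Foxp3 gate, 35.7 ± 4.87 in the Il17a gate, 39.8 ± 1.73 in the Ifng gate, 40.2 ± 4.68 in the Gzma gate and 36.6 ± 1.62 in the rest (SD, n = 4 libraries). Its values in the Foxp3 gate, 26.7, 34.3, 33.7 and 34.9 CPM, all lay under those of the Ifng gate, 38.4, 38.9, 42.3 and 39.5 CPM (log2 fold change -0.25, SE 0.09, adjusted p = 0.036). Ndufs8 had 129, 109, 94.8 and 111 CPM in the Il17a gate, against 88.6, 95.2, 89.6 and 83.3 in the rest, which overlapped in 1 library of the Il17a gate. Ndufs3 (99.7, 129, 134 and 119 CPM in the Il17a gate, against 114, 109.6, 119 and 115 in the rest) and Ndufs7 (126, 156, 126 and 118 against 143, 139, 146 and 154) overlapped and did not pass against the rest. The flavoprotein subunit Ndufv1 was higher in the Foxp3 gate, at 76.4, 65.5, 74.3 and 77.5 CPM, against 63.0, 67.0, 68.0 and 64.4 in the rest. Its partner Ndufv2 had 150.3, 144, 134 and 148 CPM in the Foxp3 gate and 153, 169, 152 and 153 in the Il17a gate, against 128, 120.5, 134 and 121 in the rest. No core subunit was among the members called at matched depth in any of the 6 comparisons (edgeR).

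Complex II split between its subunits. The iron-sulfur subunit Sdhb had 258, 239.9, 235 and 272 CPM in the Il17a gate, against 195, 194, 191 and 175 in the Ifng gate and 194, 181, 184 and 181 in the rest, with no overlap. It was higher than in the rest in all cells (log2 fold change 0.50, SE 0.06, adjusted p = 3.3e-06), but at matched depth passed only against the Ifng gate (log2 fold change 0.36, SE 0.09, adjusted p = 0.013). The flavin subunit Sdha, its partner in the catalytic head, had 115, 104, 142 and 132 CPM in the Il17a gate, against 127, 129, 136 and 131 in the rest, which overlapped. The membrane anchor Sdhc had 64.7, 54.6, 49.4 and 44.1 CPM in the Il17a gate, against 52.7, 55.8, 52.2 and 55.1 in the rest, and overlapped too. The other anchor, Sdhd, had 77.4, 87.6, 84.9 and 83.1 against 72.1, 73.0, 79.5 and 68.7 CPM (log2 fold change 0.22, SE 0.08, adjusted p = 0.044), and its fold change was -0.25 at matched depth, where it did not pass.

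The assembly factor Sdhaf1, which helps to fit the iron-sulfur clusters of Sdhb, moved the most of any member in the Foxp3 gate. It had 91.2, 89.3, 78.8 and 69.8 CPM in libraries 1 to 4 of the Foxp3 gate and 30.2, 27.9, 27.7 and 19.5 in the Il17a gate, with 38.4, 39.8, 34.2 and 36.4 in the Ifng gate, 29.4, 37.4, 30.8 and 23.3 in the Gzma gate and 37.5, 38.7, 39.4 and 37.6 in the rest. Every library of the Foxp3 gate was above, and every library of the Il17a and Gzma gates below, all libraries of the rest. The Foxp3 gate differed from the rest in all cells (log2 fold change 1.14, SE 0.07, adjusted p = 2.5e-11). At matched depth it held 106, 75.9, 97.4 and 59.7 CPM, against 36.8, 45.5, 40.5 and 39.7 in the rest (log2 fold change 1.08, SE 0.17, adjusted p = 3.1e-05). Lower values passed in the Gzma gate at both depths (all cells: log2 fold change -0.36, SE 0.10, adjusted p = 0.014; matched: log2 fold change -0.73, SE 0.21, adjusted p = 0.039) and in the Il17a gate in all cells only (log2 fold change -0.47, SE 0.13, adjusted p = 0.0089). The Gzma call did not hold in all cells without library 1, 3 or 4 or without cycling cells, nor at matched depth in a second draw, with DESeq2 or when any 1 library was left out. No other assembly factor of complex II passed against the rest in any gate.

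Sdhaf1 lies at chr7:30321406-30323895 on the minus strand (GENCODE M21, mm10), where E130208F15Rik overlaps it on the other strand. Whether the counting used strand is not given in the sources used here. E130208F15Rik itself was counted at 4.11, 5.85, 6.44 and 5.13 CPM in the Foxp3 gate, against 2.50, 1.65, 1.52 and 2.03 in the rest, far under Sdhaf1. The neighbouring Alkbh6 had 42.7, 50.3, 43.6 and 46.7 CPM in the Foxp3 gate, against 32.6, 34.3, 33.7 and 34.6 in the rest.

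**Figure D3:**
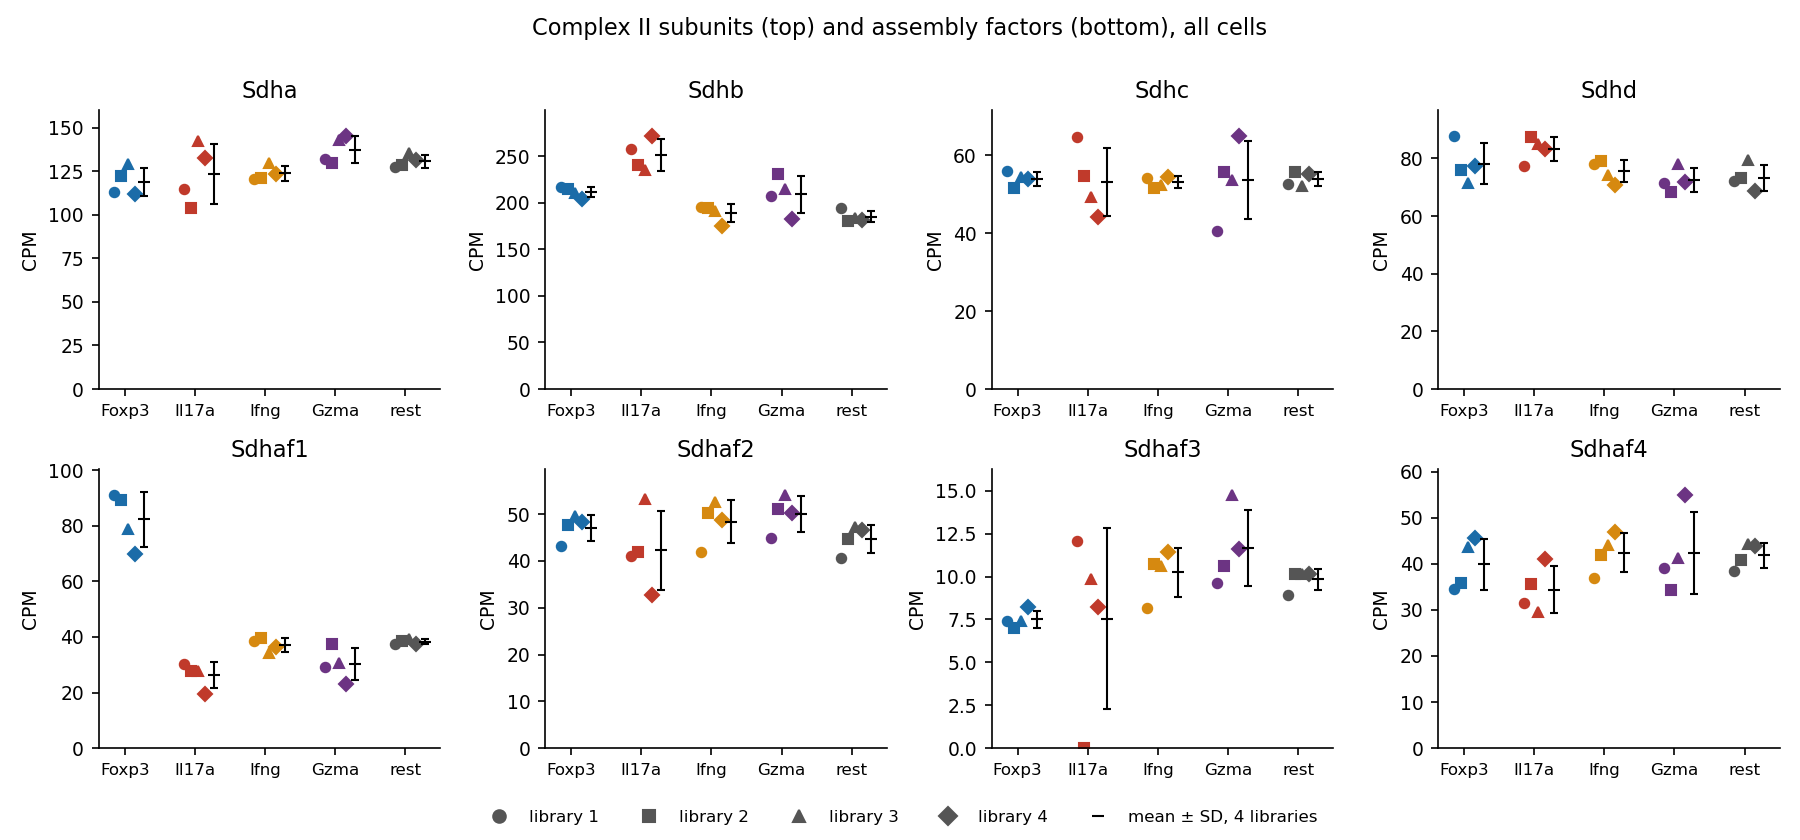
CPM (vertical axes, starting at 0) of the 4 subunits of complex II (top) and its 4 assembly factors (bottom) in each gate, all cells; symbols are libraries 1 to 4 and black bars the mean ± SD. Sdhaf1 stands at 69.8 to 91.2 CPM in the Foxp3 gate, above 19.5 to 39.8 CPM in every library of the other gates, while Sdhb is highest in the Il17a gate.

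In complex IV the Il17a gate was higher than the rest for every one of the 10 tested subunits in all cells. Cox5a, which sits at the matrix side of the complex, had 531, 423, 466 and 539 CPM in the Il17a gate, against 423, 403, 410.4 and 399 in the Ifng gate and 403, 365, 373 and 360.4 in the rest. Cox5b, the zinc-binding matrix subunit, had 700.0, 646, 654 and 657 CPM in the Il17a gate, against 558, 558, 525 and 545 in the Ifng gate and 532, 513, 501 and 503 in the rest (log2 fold change 0.43, SE 0.04, adjusted p = 7.8e-08). Cox6a1 had 489, 440.4, 474 and 438 CPM in the Il17a gate, against 387, 364, 356 and 366 in the Ifng gate and 368, 357, 343 and 355 in the rest. Cox5b and Cox6a1 overlapped neither gate, and Cox5a overlapped the Ifng gate but not the rest. Of these, Cox6a1 passed against the Ifng gate at matched depth (log2 fold change 0.26, SE 0.07, adjusted p = 0.019), as did Cox6c at a log2 fold change of 0.26, whereas Cox5a and Cox5b did not. Cox4i1 (938, 840.2, 832 and 854 CPM in the Il17a gate), Cox6b1 (556, 489.9, 516 and 484), Cox7a2 (467, 407, 446 and 455) and Cox7b (348, 324, 348 and 349.9) were higher than in the rest in all cells, by log2 fold changes of 0.18 to 0.32. Cox7a2l, a supercomplex assembly factor, lay under every library of the rest at 309.5, 265, 290.4 and 294 CPM and did not pass (adjusted p = 0.14).

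Complex V was led by Atp5g3, one of 3 genes for the same mature c subunit of the membrane ring. It had 993, 833, 917 and 973 CPM in the Il17a gate, against 720.2, 687, 687 and 666 in the Ifng gate and 708, 672, 668 and 646 in the rest, with no overlap (log2 fold change 0.52, SE 0.05, adjusted p = 1.8e-07). Against the Ifng gate it also passed at matched depth (log2 fold change 0.30, SE 0.07, adjusted p = 0.0028). The other two c subunit genes differed less, with 277, 244, 251 and 319 CPM for Atp5g1 in the Il17a gate, against 258, 249, 259 and 262 in the rest. Atp5g2 stood at 677, 657, 606 and 726 CPM in the Il17a gate, against 627, 628, 653 and 646 in the rest. Neither of them passed against the rest. The catalytic beta subunit Atp5b had 536, 518, 549 and 597 CPM in the Il17a gate, against 452, 438, 423 and 443 in the Ifng gate and 436, 426, 438 and 426 in the rest. The peripheral stalk subunit Atp5f1 had 429, 434, 472 and 368 CPM in the Il17a gate, against 346, 321, 340.1 and 313 in the rest. The alpha subunit Atp5a1 had 534, 420.1, 563 and 419.6 CPM in the Il17a gate, against 404, 383, 371 and 381 in the Ifng gate. Atp5b and Atp5f1 kept their calls against the Ifng gate at matched depth, at 0.22 and 0.29, with Atp5c1, Atp5e and Atp5j beside them at 0.19 to 0.28, and Atp5a1 did not. Atp5s, coupling factor B, was lower in the Il17a gate at 5.44, 5.08, 5.93 and 6.16 CPM, against 8.87, 12.2, 9.97 and 9.42 in the Ifng gate and 10.9, 12.2, 10.2 and 9.74 in the rest (log2 fold change -0.87, SE 0.24, adjusted p = 0.013), and was too low to test at matched depth.

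**Figure D4:**
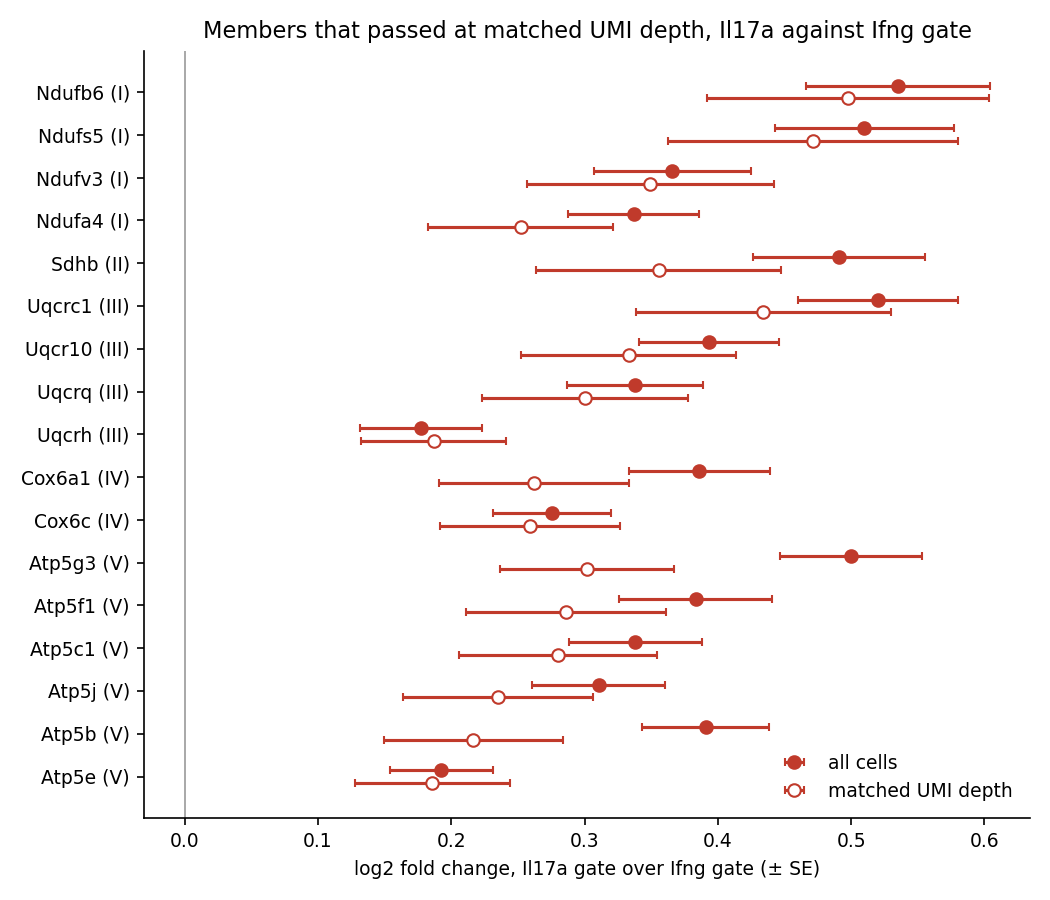
Log2 fold change (horizontal axis, ± SE) of the 17 members that passed in the Il17a gate against the Ifng gate at matched UMI depth, in all cells (filled) and at matched depth (open), with the complex of each in brackets. The matched values run between 0.19 for Atp5e and 0.50 for Ndufb6.

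The Foxp3 gate had no common direction in all cells: 11 members were higher than in the rest and 7 lower, where 18.9% of all genes were called higher and 14.9% lower, and the members' median log2 fold change was 0.00. At matched depth 2 were higher and 13 lower, where 9.01% of all genes were called higher and 7.82% lower, with a median of -0.10. The 13 were 4 accessory subunits of complex I, Uqcr10, 3 subunits of complex IV and 5 of complex V. Of all 88 tested members, Sdhaf1 and Atp5d were higher and Atp5h, Ndufs5 and Ndufa3 lower at both depths. The other 10 members lower at matched depth had not passed in all cells. The count in all cells was 11 without library 1 or library 4 and 30 in cells of 3000 to 6000 UMIs, with 8 higher and 22 lower. In that window 18.1% of all genes were called higher and 15% lower, against 9.20% and 25.3% of members. Without library 1 the shares of all genes were 15.2% and 12.3%. At matched depth the count was 7 without library 1 or 4 and 9 without library 2 or 3, and DESeq2 called 1 higher and 4 lower. Without cycling cells, 1 was higher and 5 were lower at matched depth, where 8.24% of all genes were called higher and 8.20% lower. Among members called in all cells, Ndufa11, Uqcrc1 and Cox6b1 did not pass when any 1 library was left out, Ndufv1 without library 1, 3 or 4, Ndufv2 and Ndufaf4 without library 1 or 4 and Atp5g2 without library 2 or 4. Matching done for the Foxp3 gate and the rest alone, which keeps more cells, called 1 member higher and 23 lower, where 14.4% of all genes were called higher and 12.7% lower.

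Atp5h, a peripheral stalk subunit of complex V, had 539.7, 494, 516 and 509 CPM in the Foxp3 gate, against 691, 637, 642 and 653 in the Ifng gate and 662, 629.8, 644 and 631 in the rest. There was no overlap, and the fall passed in all cells (log2 fold change -0.28, SE 0.04, adjusted p = 3.2e-06) and at matched depth (log2 fold change -0.46, SE 0.06, adjusted p = 1.9e-06). Atp5d, the delta subunit of the F1 head, went the other way in the same complex, with 623, 597, 580.1 and 553 CPM in the Foxp3 gate, against 553, 534, 507 and 480.1 in the Ifng gate and 534, 503, 488 and 465 in the rest. It passed against the rest in all cells (log2 fold change 0.28, SE 0.04, adjusted p = 9.6e-06) and at matched depth (log2 fold change 0.19, SE 0.06, adjusted p = 0.033). Atp5g2 had 670.3, 684, 692 and 765 CPM in the Foxp3 gate, against 615, 579.8, 632 and 633 in the Ifng gate and 627, 628, 653 and 646 in the rest. That call was lost at matched depth, where its fold change was -0.02.

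Among small subunits of complexes III and IV, Uqcr11 had 184, 197, 196 and 196 CPM in the Foxp3 gate, against 160.0, 164, 156 and 170.0 in the Ifng gate and 161, 162, 152 and 181 in the rest. It passed against the Ifng gate at both depths (matched: log2 fold change 0.35, SE 0.11, adjusted p = 0.026) and against the rest in all cells only. Uqcrc1 had 161, 154, 159.5 and 153 CPM in the Foxp3 gate, above every library of the rest (log2 fold change 0.16, SE 0.05, adjusted p = 0.027). Uqcrh had 701, 681, 747 and 714 CPM in the Foxp3 gate, against 682, 644, 665 and 676 in the Ifng gate. Cox6b1 had 451, 455, 438 and 465 CPM in the Foxp3 gate, against the values of the rest given above, and was the only subunit of complex IV higher there (log2 fold change 0.12, SE 0.04, adjusted p = 0.038). At matched depth Cox5a, Cox5b and Cox6a1 fell instead, with 334, 323, 294 and 281 CPM for Cox6a1 in the Foxp3 gate, against 394, 412, 386 and 395 in the rest (log2 fold change -0.34, SE 0.07, adjusted p = 0.0013). Those 3 were lower than in the Ifng gate as well at matched depth, each at a log2 fold change of -0.24. In all cells Cox6a1 (349.5, 334, 305 and 312 CPM) and Cox7a2 (377, 354, 339 and 354 CPM, against 399.6, 400.5, 392 and 411 in the Ifng gate) were lower than in the Ifng gate.

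In complex I the Foxp3 gate had 4 members higher and 6 lower than the rest. Ndufb7 had the largest rise that passed, with 242, 228, 225 and 220.2 CPM in the Foxp3 gate, against 199.5, 194, 195 and 193 in the rest (log2 fold change 0.26, SE 0.05, adjusted p = 1.6e-04). The accessory subunit Ndufa11 had 187, 192, 170.4 and 188 CPM in the Foxp3 gate, against 176, 170.0, 169.9 and 164 in the rest, which overlapped. Both did not pass at matched depth, where Ndufb7 stood at 0.06 and Ndufa11 at -0.03. The assembly factor Ndufaf4 had 24.6, 31.6, 28.7 and 25.7 CPM in the Foxp3 gate, against 33.1, 35.8, 36.2 and 38.7 in the rest (log2 fold change -0.33, SE 0.10, adjusted p = 0.015). Ndufs5 had 115, 121, 127 and 124 CPM in the Foxp3 gate, under every library of the rest, and passed at both depths (matched: log2 fold change -0.38, SE 0.11, adjusted p = 0.022). Ndufa3 had 368, 429, 390.4 and 463 CPM, against 435, 500.3, 492 and 522 in the Ifng gate and 422, 495, 478 and 508 in the rest, and was lower than the rest at both depths. A further 3 accessory subunits were lower in the Foxp3 gate than in the Ifng gate. Ndufa12 had 94.1, 92.9, 84.2 and 105 CPM in the Foxp3 gate, against 109.5, 105, 112 and 118 in the Ifng gate. Ndufb2 had 77.2, 93.6, 87.7 and 101 CPM, against 109, 110.1, 105 and 107 in the Ifng gate, and Ndufb11 had 298, 284, 281 and 274 CPM, against 339, 333, 314 and 307 in the Ifng gate. Over all complexes the Foxp3 gate differed from the Ifng gate in 10 members higher and 9 lower, where 17.8% of all genes were called higher and 15.2% lower, and at matched depth in 3 higher and 4 lower, where 9.34% were called higher and 7.04% lower. The count in all cells was 11 without library 1 and 12 without library 3, and at matched depth it was 4 without library 3 and 2 without library 4. In all cells without library 1, 15.2% of all genes were called higher and 12.1% lower. At matched depth without library 3 the shares were 8.48% and 5.92%. Cox7a2 did not pass when any 1 library was left out, Cox6a1 without library 1, 3 or 4, Ndufs1 without library 1, 2 or 3, Ndufs5 without library 1, 2 or 4, Ndufa12 without library 1 or 3, Ndufb11 and Ndufv2 without library 1 or 2, Uqcrh without library 2 or 3, Ndufb2 without library 1 and Uqcrc1 without library 3. Matching done for these gates alone called 5 higher and 14 lower, where 15.2% of all genes were called higher and 12.8% lower.

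Markers of other cell types moved with the Foxp3 gate. Among 5 myeloid markers 2 could be tested and 1 was higher, with a summed level of 203.6 to 233 CPM in the Foxp3 gate, against 133.8 to 149 in the rest. Nearly all of it was Cst3, at 213, 193, 230 and 206 CPM in libraries 1 to 4 of the Foxp3 gate. Among 5 epithelial markers 1 could be tested and was higher, with 73.9 to 103.5 CPM in the Foxp3 gate, against 13.2 to 21.5 in the rest. That was Epcam, while Krt20 was at 0 and Krt8 was at 0 in 3 of 4 libraries. Fabp2 and Reg3b were also detected in the Foxp3 gate but could not be tested. B cell markers summed to 37.5 to 45.1 CPM, against 8.43 to 11.6 in the rest, with Ms4a1 at 0, and the 4 plasma cell markers ranged over 14.4 to 1863 CPM, against 191 to 1003. In the Il17a gate the myeloid sum was 126.9 to 220.6 CPM with 1 of 2 tested markers higher than in the rest, the epithelial sum at most 5.13 CPM and the B cell sum at most 12.1 CPM. Of 5 stromal or endothelial markers Pecam1 alone could be tested and was higher, at 53.3 to 84.6 CPM in the Il17a gate, against 41.5 to 43.9 in the rest, while Col1a1, Col3a1, Dcn and Cdh5 were at 0 in the Il17a gate. Of 4 mast cell markers Kit alone could be tested and was higher, at 3.81 to 21.5 CPM against 1.04 to 3.05 in the rest, with Cpa3, Mcpt1 and Mcpt2 at 0 in the Il17a gate. Of 3 tested gamma-delta T cell markers Tcrg-C1 was higher, the list summing to 91.3 to 241 CPM in the Il17a gate, against 48.1 to 81.0 in the rest. In the Foxp3 gate Kit was higher too, the mast cell list summing to 7.80 to 17.2 CPM, against 1.14 to 3.47 in the rest, with Mcpt1 and Mcpt2 at 0. Pecam1 and 2 of 3 tested gamma-delta T cell markers were lower, with sums of 17.8 to 27.7 CPM against 41.9 to 44.1 and of 8.21 to 49.8 CPM against 48.1 to 81.0 in the rest. Cells that hold 3 or more UMIs of other cell types, Cst3 not counted, were 12.5% to 16.3% of the Foxp3 gate. They were 2.26% to 12.3% of the Il17a gate and 1.79% to 2.34% of the rest. Without these cells, 9 members were higher and 9 lower in the Foxp3 gate than in the rest, where 17.6% of all genes were called higher and 15% lower. Sdhaf1 was higher there at a log2 fold change of 1.17. In the same cells 43 members were higher and 4 lower in the Il17a gate than in the rest, where 13.6% of all genes were called higher and 9.65% lower. The part of these other markers and of Cst3 in the results was not tested.

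The Ifng and Gzma gates stood close to the rest. In the Ifng gate 1 member was higher and 1 lower, where 5.63% of all genes were called higher and 5.24% lower. Cox8a had 1053, 1063, 1041 and 1069 CPM in the Ifng gate and 1096, 1110.0, 1169.7 and 1078 in the Gzma gate, above every library of the rest. Cox7a2l had 305, 285, 294 and 294 CPM in the Ifng gate and 307, 286, 292 and 287 in the Gzma gate, against 343, 311, 324 and 319 in the rest, all below it. Both passed in both gates (Ifng, Cox8a: log2 fold change 0.13, SE 0.04, adjusted p = 0.026; Cox7a2l: log2 fold change -0.15, SE 0.04, adjusted p = 0.022). In the Gzma gate 3 members were higher and 2 lower, where 8.74% of all genes were called higher and 7.34% lower. Beside those 2 and Sdhaf1, they were Cox5b and the accessory subunit Ndufb8 of complex I. Cox5b had 584, 629.9, 597 and 573 CPM in the Gzma gate, against 532, 513, 501 and 503 in the rest (log2 fold change 0.21, SE 0.04, adjusted p = 6.0e-04). Ndufb8 had 211, 214, 229.5 and 220.4 CPM in the Gzma gate, against 199, 187, 187 and 174 in the rest (log2 fold change 0.22, SE 0.05, adjusted p = 0.0066). At matched depth edgeR and DESeq2 called 0 members in the Ifng gate, with 14 of 85 (16.5%) at an unadjusted p under 0.05 by edgeR, against 13.1% of all genes, where 1.74% of all genes were called higher and 1.81% lower. In the Gzma gate edgeR called only Sdhaf1, lower, where 2.13% were called higher and 3.21% lower, and that call was lost when any 1 library was left out. In all cells the Ifng count was 0 without library 1, 2 or 3 and 12 in a fit of the 2 gates alone. The Gzma count was 10 with DESeq2, 3 without library 1 or 4 and 2 without library 3, and there Cox7a2l did not pass when any 1 library was left out, nor Ndufb8 without library 3 or 4. In matching done for the Ifng gate and the rest alone, 2 members were higher and 11 lower, where 7.51% of all genes were called higher and 7.57% lower. In the same matching for the Gzma gate 2 were higher and 1 lower, where 5.20% were called higher and 5.39% lower.

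Within every gate the summed level of the members was higher in cells with more UMIs, leaving out 12 cells of the Il17a gate under 2000 UMIs. In the rest the summed CPM of all members was 19779 ± 567 in cells of 1000 to under 2000 UMIs, 21330.0 ± 269 at 2000 to under 3000, 21711 ± 194 at 3000 to under 4000, 22133.5 ± 204 at 4000 to under 6000, 23943 ± 549.5 at 6000 to under 10000 and 27432 ± 830.2 at 10000 or more (SD, n = 4 libraries). Cells with 2 or more UMIs of cycling markers, a rule that deep cells meet more easily, were 7.08% of the first bin and 87.2% of the last. Without cycling cells the rest stood at 19819 ± 831, 21381 ± 320.4, 21675 ± 207, 21846 ± 116, 22878 ± 318 and, in only 31 cells of 10000 or more UMIs, 19121 ± 3162. The Foxp3 gate lay under the rest in each of the 6 bins, for example at 20896 ± 459.9 CPM for 4000 to under 6000 UMIs. The Il17a gate was at 21372 ± 641 for 3000 to under 4000 UMIs and at 28715 ± 736 for 10000 or more.

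Cycling cells had more respiratory chain transcripts in every gate. In the Il17a gate, cells with 2 or more UMIs of cycling markers held 27817, 25695, 28594 and 27518 CPM in libraries 1 to 4, against 23300, 22489, 21749 and 22862 in the other cells. In the rest they held 24426, 24598, 24549 and 24585 CPM, against 21798, 21643, 21775 and 21757. The Foxp3 gate was lowest among cells that were not cycling, at 20851, 20516, 20844 and 20843 CPM. All 9 cycling markers were higher in the Il17a gate than in the rest, their summed level being 1096 to 1583 CPM in the Il17a gate, against 396 to 482 in the rest. The rule of 2 or more UMIs that calls a cell cycling counted 8 of these 9 markers, leaving out Stmn1. In the Il17a gate 33.7% to 48.5% of cells were cycling, against 18.2% to 23.7% of the rest. The other gates also stood above the rest, with 9 of 9 cycling markers higher in the Gzma gate, 8 in the Ifng gate and 4 in the Foxp3 gate. Cycling cells were 27.4% to 29.2% of the Gzma gate, 25.6% to 31.5% of the Ifng gate and 23.9% to 35.9% of the Foxp3 gate. Without cycling cells, 16 members were higher in the Il17a gate than in the rest and none lower, where 6.13% of all genes were called higher and 2.61% lower. Likewise 25 were higher than in the Ifng gate and none lower, where 7.63% of all genes were called higher and 4.27% lower. Depth, cycling and the gate cannot be fully told apart, since a deeper cell is both more often cycling and more often found to hold Il17a.

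**Figure D5:**
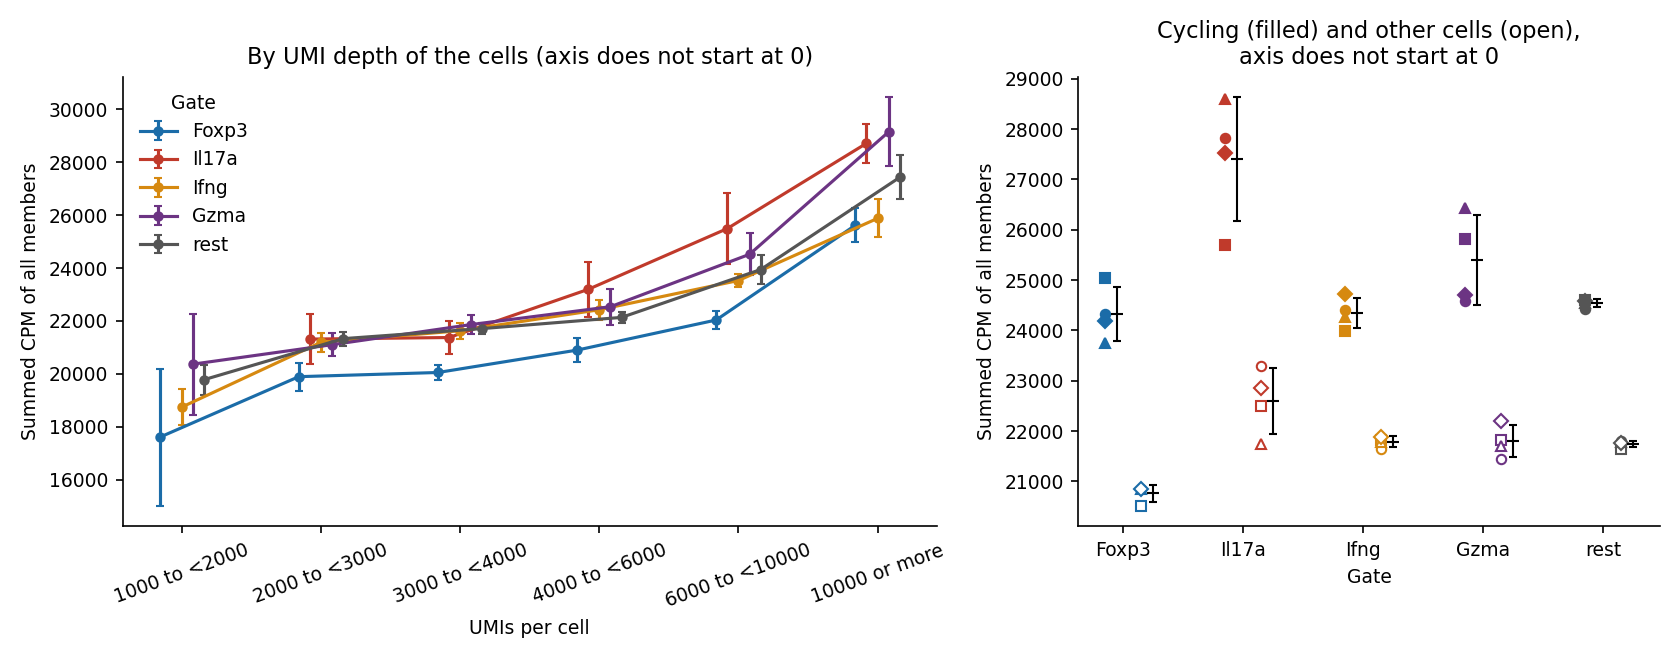
Left, summed CPM of all members (vertical axis, not starting at 0; mean ± SD of 4 libraries) against the UMIs of the cell, one line per gate, leaving out bins with under 20 cells. Right, the same sum in cells with 2 or more UMIs of cycling markers (filled) and other cells (open), one symbol per library, shapes as in the other plots. The sum is higher in deeper bins in every gate, the mean of the Foxp3 gate lies under that of the rest in each bin, and cycling cells lie above the others in each gate.

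Genes encoded by mitochondrial DNA differed from the nuclear members in their calls against the rest, while against the Ifng gate both were higher in the Il17a gate. Their summed CPM was 25170, 23101, 24488 and 23000 in the Il17a gate, against 22803, 21337, 19925 and 20621 in the Ifng gate and 25736, 24369, 22852 and 23015 in the rest. Of 13 such genes, 1 was higher (mt-Cytb of complex III) and 1 lower (mt-Nd2 of complex I) in the Il17a gate than in the rest, while all 13 were higher than in the Ifng gate. Of all genes, 15.6% were called higher and 10.7% lower than in the rest, and 15.1% higher than in the Ifng gate. Lower values than in the rest passed for 6 of 13 in the Foxp3 gate and for 12 of 13 in both the Ifng and the Gzma gate, gates in which few nuclear members moved. The shares of all genes called lower were 14.9%, 5.24% and 7.34% in the Foxp3, Ifng and Gzma gates. In matched cells 7 of 13 were higher in the Il17a gate than in the Ifng gate, and 8 of 13 and 10 of 13 were lower than the rest in the Ifng and Gzma gates. Of all genes, 4.81% were called higher in the first of these comparisons, and 1.81% and 3.21% lower in the others.

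Other mitochondrial and metabolic genes were read in the same fits. In the Il17a gate 15.6% of all genes were called higher than in the rest and 10.7% lower. At matched depth the shares were 3.05% and 1.77%. In the Il17a gate 8 of 17 genes of the tricarboxylic acid cycle and pyruvate dehydrogenase were higher than in the rest and none lower, with Fh1 (fumarase) at a log2 fold change of 0.78 and Cs (citrate synthase) at 0.45. None of the 17 passed at matched depth. Of 15 glycolysis genes 9 were higher and 1 lower, the lower one being the glucose transporter Slc2a3 at -0.57, and Gapdh alone passed at matched depth, at 0.28. Against the Ifng gate at matched depth, Ldha (lactate dehydrogenase) stood at 0.46 and Pkm (pyruvate kinase) at 0.52. They were 2 of 4 glycolysis genes that passed, all higher, where 4.81% of all genes were called higher and 3.51% lower. Of 78 mitochondrial ribosomal protein genes 20 were higher and 4 lower in the Il17a gate than in the rest, and 7 of 16 import and chaperone genes were higher and none lower. Of 29 tested assembly genes of complexes III, IV and V 2 were higher, and of 13 tested regulators of mitochondrial biogenesis 1 was. Cytosolic ribosomal protein genes, which were read for comparison, had 15 of 83 higher and 38 lower in the Il17a gate than in the rest, 73 lower in the Ifng gate and 76 lower in the Gzma gate. Of all genes, 5.24% were called lower in the Ifng gate and 7.34% in the Gzma gate.

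In the Foxp3 gate, where 18.9% of all genes were called higher than in the rest and 14.9% lower, 11 of 15 glycolysis genes were higher and 2 lower, with Tpi1 (triosephosphate isomerase) at a log2 fold change of 0.88 and Hk2 (hexokinase) at -0.92, and 2 of 17 cycle genes were higher and 5 lower, among them Idh2 at -0.58. At matched depth 2 glycolysis genes were higher and 2 lower, and 2 cycle genes were lower, Idh2 at -0.81 and Idh3a at -0.47. There 9.01% of all genes were called higher and 7.82% lower. Of 9 respiratory chain genes outside the name rule, Gpd2, which feeds electrons of glycerol 3-phosphate to the chain, was lower in the Foxp3 gate (-0.90 in all cells, -1.40 at matched depth), and Usmg5, a small subunit of complex V, was lower in all cells (-0.36). Gpx4, a lipid peroxide reductase, was higher in the Foxp3 gate (0.87 and 1.00), as was Gabpb1, a subunit of the ETS factor GABP (0.70 and 0.92). In the Il17a gate, Cycs (cytochrome c), Atpif1 (the inhibitor of complex V) and Etfa (an electron transfer flavoprotein) were higher than in the rest, at 0.38, 0.36 and 0.45, and none of these 3 passed at matched depth, where Usmg5 did, at 0.26.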

How the data were processed

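Single-cell RNA of sorted CD4 T cells was measured in 4 libraries of 1 group. The values are raw UMI counts per gene and cell barcode as deposited by the authors. They were made with Cell Ranger 3.0.2 on mm10, per the submitters' processing notes.

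Barcodes under 500 genes or 1000 UMIs, or over 10% of UMIs from mitochondrial genes, were dropped. Doublets were removed with scanpy's Scrublet (version 1.11.5) by taking the highest scores at a rate of 0.8% per 1000 barcodes of a library. These steps took out 370 and 1033 of 22904 barcodes and left 21501. The libraries held 23918884 to 28783972 UMIs, with a median of 3848 UMIs per cell.

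UMIs were summed per library and gate, and the 20 sums entered 1 fit with the library as a block, since all gates of a library come from the same cell suspension (edgeR 4.0.16 in R 4.3.3, quasi-likelihood test, TMM scaling, default filter on low counts, Benjamini-Hochberg over all genes tested). The 4 gate genes were left out of the tests. For matched depth, each gate of a library gave the same number of cells per bin of 0.25 log2 UMIs, drawn with a fixed seed. DESeq2 1.42.0 was an alternative, and the fits to all and to matched cells were also run on simulated data. Those data had 1 fixed spread for all genes and no differences between libraries. They therefore do not show what share of real changes the matched fit finds. SDs give the spread of CPM over libraries, and no p-value was computed for summed members. Tables were made with Python 3.11.15, pandas 2.3.3 and numpy 2.4.6.

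Members described with values in every library are the up to 3 of each complex with the largest log2 fold change among those past the threshold with a mean of at least 20 CPM in 1 gate, the isoform sets of complex IV and of the c subunit, the core subunits of complex I, the subunits of complex II, and members that passed against the median direction of their complex. Members called at matched depth were added to these. Some values that this rule covers are not reported here. The members, gates and lists were chosen with earlier results of these data known, the difference between the Il17a and Ifng gates among them, so that difference is not independent support.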

Additional observations from a re-analysis of the deposited data

Results flagged for a closer look

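In 9 of 220 groups of 4 libraries 1 library lay far from the other 3, where chance alone gives about 1 group in 20. Of the 9, 4 lay in the Il17a gate. Library 2 of the Il17a gate was low in complex I (7449 CPM, others 7690.4 to 7719), complex II (591 CPM, others 629 to 633) and complex V (7686 CPM, others 8410.1 to 8454), and high in Ndufv2 (169 CPM, others 152 to 153). In the Foxp3 gate, library 4 was low in complex II (619 CPM, others 644 to 649), and library 1 was low in Ndufs1 (26.7 CPM, others 33.7 to 34.9) and in Uqcr11 (184 CPM, others 196 to 197). In the Ifng gate, library 3 was low in Uqcr10 (255 CPM, others 268 to 269.9). In the rest, library 3 was high in complex II (592 CPM, others 572 to 574).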

How the results depend on the processing

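Limits come from the Il17a gate, which has 92 cells in library 3, from gates that rest on single UMIs, and from matching, which leaves 506 cells a gate. Pairing by library follows from the design, since all gates of a library come from the same cell suspension, and the library block belongs to the reported fits. With no library block the counts in all cells were 10 (Foxp3 against the rest), 49 (Il17a), 0 (Ifng), 2 (Gzma), 48 (Il17a against Ifng) and 11 (Foxp3 against Ifng), and at matched depth 10, 0, 0, 0, 11 and 5 in the same order. Without the block in all cells, 15.3% of all genes were called higher and 11.0% lower for Foxp3 against the rest. For the members these shares were 7.95% and 3.41%. For Il17a against the rest they were 13% and 8.76% of all genes, and 53.4% and 2.27% of members. At matched depth they were 7.53% and 5.92% of all genes, and 1.18% and 10.6% of members, for Foxp3 against the rest. For Il17a against Ifng they were 3.18% and 2.51%, and 12.9% and 0%. Leaving out the block did not change the direction of any named member. Settings that changed a count by at most 1.5 times, other than leaving out the block, are not listed. Comparisons at matched depth beyond the first draw, and those without cycling cells or with equally few cells, were chosen after seeing the data.

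For the Foxp3 gate against the rest the count in all cells was 18, and it was 30 in cells of 3000 to 6000 UMIs and 11 in cells that met 1 gate only. Further settings gave 10 with no library block, 6 at matched depth without cycling cells and 3 with equally few cells but no matching. It ranged over 11 to 15 when 1 library was left out. For the Il17a gate against the rest the count in all cells was 57, and it was 1 at matched depth and 3 in cells of 3000 to 6000 UMIs. Further settings gave 6 without cycling cells and cells with markers of other types, 0 in a second matched draw, with the 2 gates matched alone and at matched depth without cycling cells, 16 without cycling cells and 25 with equally few cells but no matching. It ranged over 36 to 47 when 1 library was left out. For the Ifng gate against the rest the count in all cells was 2, and it was 0 at matched depth, in cells that met 1 gate only, with no library block, in a second matched draw, at matched depth without cycling cells and with equally few cells but no matching and 4 with DESeq2. Further settings gave 1 with gates set after thinning cells to 2000 UMIs, without cycling cells and cells with markers of other types and without cycling cells, 12 in a fit of the 2 gates alone and 13 with the 2 gates matched alone. It ranged over 0 to 2 when 1 library was left out. For the Gzma gate against the rest the count in all cells was 5, and it was 1 at matched depth and 10 with DESeq2. Further settings gave 8 with stricter gates, 3 with gates set after thinning cells to 2000 UMIs and with the 2 gates matched alone, 2 with no library block and 0 in a second matched draw, at matched depth without cycling cells and with equally few cells but no matching. It ranged over 2 to 5 when 1 library was left out. With DESeq2 9.56% of all genes were called higher and 6.75% lower, and with stricter gates 9.87% and 8.94%. For the Il17a gate against the Ifng gate the count in all cells was 58, and it was 17 at matched depth and 5 in cells of 3000 to 6000 UMIs. Further settings gave 14 without cycling cells and cells with markers of other types, 10 in a second matched draw and with the 2 gates matched alone, 25 without cycling cells and 1 at matched depth without cycling cells. Further settings gave 34 with equally few cells but no matching. In cells of 3000 to 6000 UMIs 5.43% of all genes were called higher and 3.18% lower. Without cycling cells and cells with markers of other types the shares were 5.95% and 3.24%. They were 9.87% and 7.77% with equally few cells. For the Foxp3 gate against the Ifng gate the count in all cells was 19, and it was 7 at matched depth and 11 with no library block. Further settings gave 8 in a second matched draw and at matched depth without cycling cells and 6 with equally few cells but no matching. It ranged over 11 to 17 when 1 library was left out. In the second matched draw 9.33% of all genes were called higher and 6.67% lower. At matched depth without cycling cells the shares were 8.97% and 7.46%, and with equally few cells 8.39% and 6.69%.

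For the Foxp3 gate against the rest the count at matched depth was 15, and it was 5 with DESeq2. It ranged over 7 to 9 when 1 library was left out. With DESeq2 5.81% of all genes were called higher and 4.23% lower. For the Il17a gate against the rest the count at matched depth was 1, and it was 0 with DESeq2 and with no library block. It ranged over 0 to 2 when 1 library was left out. For the Gzma gate against the rest the count at matched depth was 1, the lower value of Sdhaf1. With library size in place of TMM 2 other members were called, none of them lower, where 2.45% of all genes were called higher and 2.83% lower. The count was 0 with DESeq2 and with no library block. It was 0 when any 1 library was left out. For the Il17a gate against the Ifng gate the count at matched depth was 17, and it was 8 with library size in place of TMM and 6 with DESeq2. Further settings gave 11 with no library block. It ranged over 1 to 17 when 1 library was left out. With library size in place of TMM 3.62% of all genes were called higher and 4.38% lower, and with DESeq2 2.69% and 1.83%. For the Foxp3 gate against the Ifng gate the count at matched depth was 7, and it was 3 with DESeq2. It ranged over 2 to 6 when 1 library was left out. With DESeq2 6.05% of all genes were called higher and 4.17% lower.

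For the Foxp3 gate against the rest the mean log2 ratio of the summed members was -0.013, and it was -0.13 at matched depth and in a second matched draw and -0.091 in cells of 3000 to 6000 UMIs. Further settings gave -0.039 in cells that met 1 gate only, -0.088 with gates set after thinning cells to 2000 UMIs, -0.078 without cycling cells and cells with markers of other types and -0.067 without cycling cells. Further settings gave -0.066 at matched depth without cycling cells and -0.060 without ribosomal protein and mitochondrial genes in the total. For the Il17a gate against the rest the mean log2 ratio of the summed members was 0.18, and it was 0.033 at matched depth and 0.025 in cells of 3000 to 6000 UMIs. Further settings gave 0.041 without cycling cells and cells with markers of other types, 0.015 in a second matched draw, 0.055 without cycling cells and 0.064 at matched depth without cycling cells. Further settings gave 0.13 without ribosomal protein and mitochondrial genes in the total. For the Ifng gate against the rest the mean log2 ratio of the summed members was 0.018, and it was -0.057 at matched depth and -0.022 with gates set after thinning cells to 2000 UMIs. Further settings gave 0.000686 without cycling cells and cells with markers of other types, -0.058 in a second matched draw, 0.0027 without cycling cells and 0.040 at matched depth without cycling cells. Further settings gave 0.000324 with equally few cells but no matching, -0.010 with TMM scaling and -0.036 without ribosomal protein and mitochondrial genes in the total. For the Gzma gate against the rest the mean log2 ratio of the summed members was 0.045, and it was 0.0083 without cycling cells and cells with markers of other types and -0.0039 in a second matched draw. Further settings gave 0.0036 without cycling cells, -0.012 with TMM scaling and -0.025 without ribosomal protein and mitochondrial genes in the total. For the Il17a gate against the Ifng gate the mean log2 ratio of the summed members was 0.16, and it was 0.090 at matched depth and 0.016 in cells of 3000 to 6000 UMIs. Further settings gave 0.040 without cycling cells and cells with markers of other types, 0.073 in a second matched draw, 0.053 without cycling cells and 0.024 at matched depth without cycling cells. For the Foxp3 gate against the Ifng gate the mean log2 ratio of the summed members was -0.031, and it was -0.071 at matched depth and -0.10 in cells of 3000 to 6000 UMIs. Further settings gave -0.049 in cells that met 1 gate only, -0.065 with gates set after thinning cells to 2000 UMIs, -0.079 without cycling cells and cells with markers of other types and -0.077 in a second matched draw. Further settings gave -0.069 without cycling cells, -0.11 at matched depth without cycling cells and -0.015 with equally few cells but no matching.

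Among 69 named members and comparisons and 1643 settings of them, 1103 kept their direction and call, 518 kept the direction without passing and 22 changed sign, none of these 22 with an adjusted p under 0.05. Ndufv2 (Foxp3 gate against the rest, 0.23) was at -0.089 at matched depth and -0.055 with the 2 gates matched alone. Ndufa11 (Foxp3 gate against the rest, 0.15) was at -0.032 at matched depth. Sdhb (Foxp3 gate against the rest, 0.23) was at -0.058 at matched depth without cycling cells. Uqcrc1 (Foxp3 gate against the rest, 0.16) was at -0.11 in a second matched draw, -0.030 with the 2 gates matched alone and -0.043 at matched depth without cycling cells. Cox6b1 (Foxp3 gate against the rest, 0.12) was at -0.0035 with the 2 gates matched alone and -0.0048 at matched depth without cycling cells. Atp5g2 (Foxp3 gate against the rest, 0.17) was at -0.020 at matched depth. Sdhd (Il17a gate against the rest, 0.22) was at -0.25 at matched depth, -0.44 in cells of 3000 to 6000 UMIs, -0.043 without cycling cells and cells with markers of other types, -0.088 with the 2 gates matched alone, -0.099 without cycling cells and -0.076 at matched depth without cycling cells. Cox5a (Il17a gate against the rest, 0.44) was at -0.046 at matched depth without cycling cells. Atp5f1 (Il17a gate against the rest, 0.41) was at -0.063 at matched depth without cycling cells. Atp5b (Il17a gate against the rest, 0.40) was at -0.083 at matched depth without cycling cells. Sdhaf1 (Gzma gate against the rest, -0.36) was at 0.045 at matched depth without cycling cells. Ndufs1 (Foxp3 gate against the Ifng gate, -0.25) was at 0.18 in a second matched draw. Uqcrc1 (Foxp3 gate against the Ifng gate, 0.19) was at -0.10 at matched depth without cycling cells. The cause was not tested.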
